A study of Arabidopsis thaliana with 12 samples.

Results

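CSLA01 (AT4G16590) and AT1G35510 are nuclear genes of Arabidopsis thaliana whose products belong to families that build glycans. They were taken from the array by their probes with exactly 1 annotated gene, and each has 1 such probe, so they stand for 2 of the 691 genes measured alone by a probe. The pair was selected on the difference between high iron and control in these same 12 samples, where both were among the larger rises. That difference is therefore described without a test.

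Total RNA was measured on 12 arrays, from wild-type plants of the ecotype Columbia 0, a common laboratory strain. The control group is 6 samples grown at normal iron and the other group is 6 samples grown at high iron, which the labels describe as a source of oxidative stress. Tissue, age, iron dose and duration are not stated in the labels, which also do not say that samples of a group came from separate plants, so p-values here rest on a spread that may be technical. Each array holds 1 intensity for each of 3439 probes on a linear scale with an upper limit of 100, in the authors' own units.

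CSLA proteins are membrane-bound glycosyltransferases of the cellulose synthase superfamily. They work in the Golgi, where members of the family join mannose and glucose into the backbone of mannan and glucomannan, hemicelluloses of the plant cell wall and storage polysaccharides of some seeds. The O-fucosyltransferase family of plants is a group of proteins related to animal enzymes that attach fucose to proteins. Its characterised members in Arabidopsis include rhamnosyltransferases of pectin synthesis and proteins that affect mannan synthesis. AT1G35510 is assigned to it by sequence, and neither the labels nor the annotation give its substrate.

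The distribution of intensities differed between the groups, which bears on every value that follows. The median intensity lay between 0.555 and 0.618 in control samples and between 0.352 and 0.446 in high iron samples, whereas the mean lay between 1.01 and 1.04 and between 0.978 and 1.03. Values are therefore given as deposited and after quantile normalization, which gives every array the same distribution of values, followed by a floor at 0.106 and log2. Within each group the samples numbered 1 and 2, 3 and 4, and 5 and 6 resembled each other. Over probes, which are not independent, their deviations around the group mean had correlations from 0.56 to 0.82 inside these sets of numbers. Across the sets the correlations ran from -0.70 to -0.25. Removing a group mean by itself tends to make those across sets negative, so only those inside the sets are read as likeness. Of the lists of tissue markers, only that of green tissue had measured genes, 6 of 23. Their summed deposited intensity ranged from 25.5 to 34.2 in control and from 40.4 to 55.8 in high iron samples. A sum of linear intensities is led by the brightest genes, so it does not show that each of the 6 rose. The part of green tissue in the results was not tested.

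CSLA01 gave a weak signal in control plants and a middling one at high iron. Its deposited intensity in the 6 control samples ran from 0.166 through a median of 0.210 to 0.223, and in the 6 high iron samples from 0.374 through a median of 0.502 to 0.561. The groups did not overlap, and the lowest high iron value, that of sample 6, stood clear of the highest control value, that of sample 2. The means were 0.204 ± 0.022 (SD, n = 6) in control and 0.477 ± 0.078 (SD, n = 6) at high iron. In bulk RNA such as this, a larger share of cells that make a transcript and more transcript per cell cannot be told apart.

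AT1G35510 was already bright in control plants and became brighter at high iron. Its deposited intensity ran from 0.922 through a median of 1.15 to 1.26 in control and from 1.70 through a median of 2.31 to 3.48 in high iron samples. These groups did not overlap either, although high iron samples 3 and 4 came close to the control range. The means were 1.11 ± 0.14 (SD, n = 6) and 2.48 ± 0.71 (SD, n = 6). Every high iron value lay above every control value for 4.89% of all 3439 probes as deposited and for 9.89% after quantile normalization. Both genes belong to these shares by choice, so nothing is read from it.

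**Figure D1:**
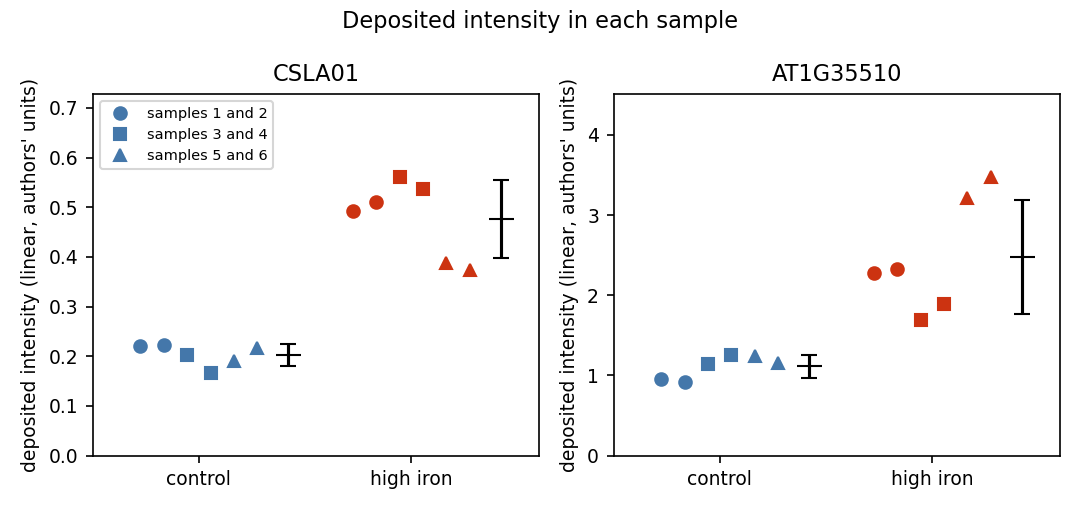
Deposited intensity (linear, authors' units) of CSLA01 and AT1G35510 in each of the 12 samples, with marker shape giving the set of sample numbers and the black mark and bar giving the mean and SD of 6 samples. CSLA01 lies between 0.166 and 0.223 in control and between 0.374 and 0.561 at high iron, and AT1G35510 between 0.922 and 1.26 and between 1.70 and 3.48.

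The distance from the lowest values of the arrays set the genes apart. No value of either gene was 0, whereas between 123 and 278 values per array were 0. After quantile normalization CSLA01 stood at 1.34 to 1.66 times the floor in control samples and at 3.91 to 6.56 times the floor at high iron. Its control level is thus close to the lowest level that was kept, though no value lay at it. AT1G35510 stood at 7.65 to 11.4 times the floor in control and at 15.4 to 29.5 times the floor at high iron, well clear of it.

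The place of a probe among all probes of its own array does not depend on how arrays are scaled. CSLA01 lay at percentiles 10.4 to 13.1 in control samples and at percentiles 40.5 to 69.3 at high iron. It moved from the dim end to the middle of the array. AT1G35510 lay at percentiles 76.3 to 88.1 in control and at percentiles 92.5 to 96.8 at high iron, a move within the brighter end of the array.

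**Figure D2:**
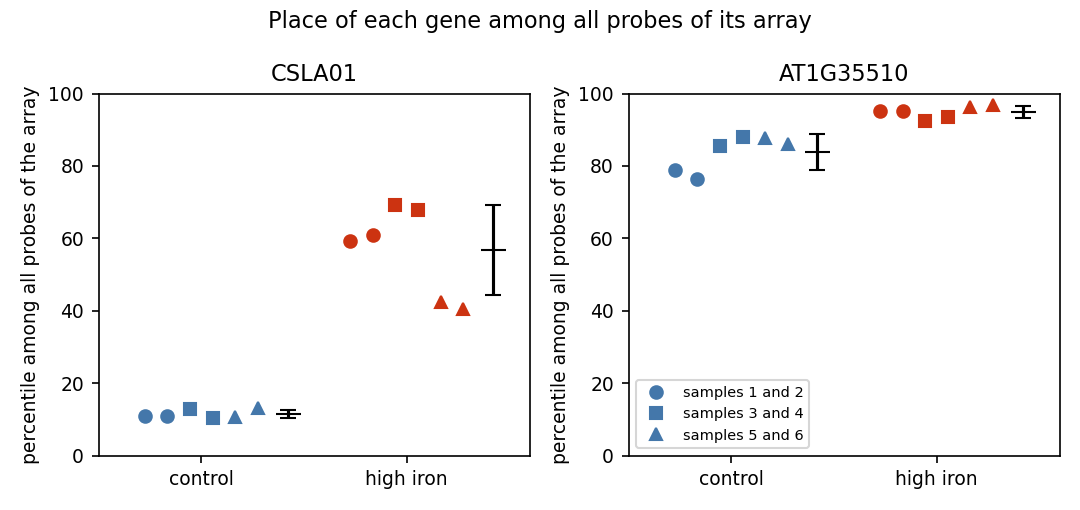
Percentile of CSLA01 and AT1G35510 among the 3439 probes of each array, by group and set of sample numbers, with the mean and SD of 6 samples in black. CSLA01 moves from 10.4 to 13.1 in control up to 40.5 to 69.3 at high iron, and AT1G35510 from 76.3 to 88.1 up to 92.5 to 96.8.

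On the log2 scale after quantile normalization, CSLA01 averaged -2.69 in control and -0.85 at high iron. The difference was 1.83, a ratio of 3.56, with an SE of 0.14 over the samples and 0.20 when the sets were averaged first (6 averages). AT1G35510 averaged 0.04 and 1.17, a difference of 1.14 and a ratio of 2.20, with an SE of 0.17 over the samples and 0.24 with the sets averaged. For comparison, the 5th and 95th percentiles of the difference over all probes were -0.81 and 0.81, and the median was 0.00. Of all 3439 probes, 1 had a larger rise than CSLA01 and 43 had a larger rise than AT1G35510, which ranked 1st and 9th among probes of a single gene. After median scaling and with deposited values 12 and 17 probes had a larger rise, and the pair ranked 4th and 7th.

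How far the pair differed depended on the scaling of the arrays. After dividing each array by its median, the differences were 1.74 (SE 0.16) for CSLA01 and 1.64 (SE 0.15) for AT1G35510. With the values as deposited they were 1.22 (SE 0.12) and 1.12 (SE 0.17), while the median of all probes stood at -0.40. Relative to that median CSLA01 rose by 1.62 and AT1G35510 by 1.52. The difference between the genes was 0.69 after quantile normalization and 0.10 with deposited values. Median scaling shifts all probes of an array alike and so leaves that 0.10 as it is. Without quantile normalization the larger mean difference of CSLA01 came from samples 3 and 4 alone: with deposited values it was 1.58 there against 0.58 for AT1G35510, but 1.18 against 1.29 in samples 1 and 2 and 0.90 against 1.48 in samples 5 and 6.

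The sets of sample numbers gave the pair opposite orders at high iron. For CSLA01 the difference between the groups was 1.97 in samples 1 and 2, 2.13 in samples 3 and 4, and 1.40 in samples 5 and 6, which are ratios of 3.91, 4.37 and 2.65. For AT1G35510 it was 1.43, 0.59 and 1.40 in the same sets, with ratios of 2.69, 1.51 and 2.63. Samples 3 and 4 thus held the largest difference of CSLA01 and the smallest of AT1G35510. The high iron arrays of these numbers were also unlike the rest, with 278 and 271 values of 0 against at most 145 on any other. Their medians, 0.352 and 0.353, were the lowest of all arrays. Whether this bears on the order of the sets was not tested. By single number the differences ran from 1.24 to 2.25 for CSLA01 and from 0.58 to 1.51 for AT1G35510, and all 12 were above 0, which the choice of the genes in part fixes.

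**Figure D3:**
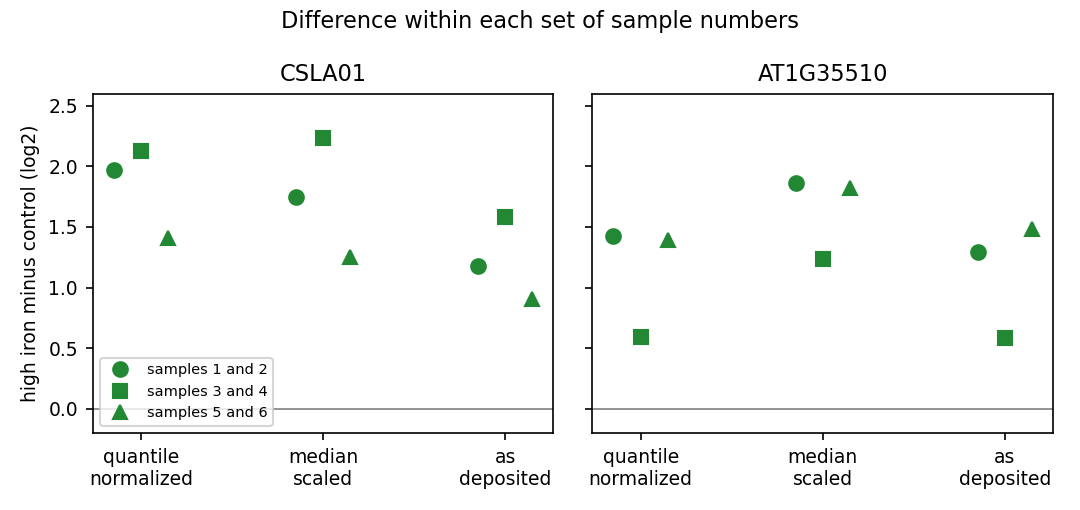
High iron minus control (log2) within each set of sample numbers for CSLA01 and AT1G35510 under 3 scalings; each marker is the difference of the means of 2 samples per group. Samples 3 and 4 give CSLA01 its largest difference (2.13 after quantile normalization) and AT1G35510 its smallest (0.59), an order that holds under all 3 scalings.

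The set means show where that order arises. In high iron samples CSLA01 averaged -0.77, -0.55 and -1.25 in the sets 1 to 3, whereas AT1G35510 averaged 1.17, 0.78 and 1.58. CSLA01 was highest where AT1G35510 was lowest and the reverse. After median scaling AT1G35510 averaged 1.45, 1.32 and 1.88 there, the same order with sets 1 and 2 closer together. After quantile normalization the control set means of CSLA01 stayed between -2.74 and -2.65, while AT1G35510 averaged -0.26 in samples 1 and 2 and 0.18 in each of the other sets. The small difference of AT1G35510 in samples 3 and 4 therefore comes with a low high iron level, and its large difference in samples 1 and 2 comes with a low control level.

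**Figure D4:**
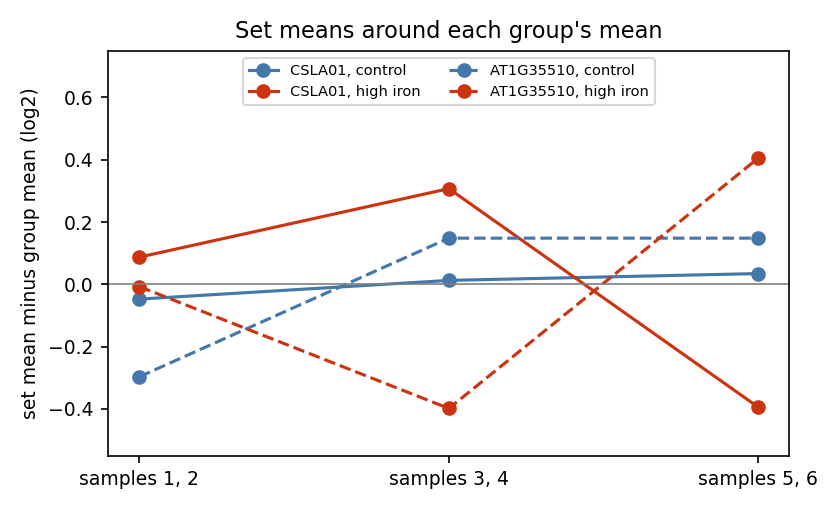
Mean of each set of 2 samples minus the mean of its group (log2 after quantile normalization) for CSLA01 (solid) and AT1G35510 (dashed), control in blue and high iron in red. The high iron lines of the genes run in opposite directions, while the control set means of CSLA01 lie between -2.74 and -2.65 with this normalization.

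Inside a set the values were close. At high iron the members of a set differed by 0.04 to 0.05 for CSLA01 and by 0.01 to 0.14 for AT1G35510, and 99.4% and 97.4% of the spread between samples, as sums of squares, lay between sets. In control samples that share was 91.7% for AT1G35510 but 8.06% for CSLA01, whose control values differed by up to 0.29 inside a set. The share of CSLA01 depended on the scaling, at 25.5% after median scaling and 56.9% with deposited values. The SD at high iron was 0.32 against 0.13 in control for CSLA01 and 0.36 against 0.24 for AT1G35510, without a test of that difference. After median scaling the SDs of AT1G35510 were 0.27 and 0.26. Should the numbers of a set mark repeat measurements of 1 RNA, each group would hold 3 independent samples and not 6.

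A further probe, number 3249, is annotated to AT1G35510 and 2 other genes and so is not a measure of AT1G35510 alone. Its deposited intensity ran from 0.817 through a median of 0.919 to 1.003 in control. At high iron it ran from 0.802 through a median of 0.983 to 1.20, and the groups overlapped. In log2 values they stood apart by 0.006 after quantile normalization and by 0.409 after median scaling, with high iron higher. After quantile normalization 9.89% of all probes had no overlap in this direction. After quantile normalization its difference was 0.37 (SE 0.09), against 1.14 for the probe of AT1G35510 alone, and by set it was 0.46, 0.29 and 0.38. By set it ran from -0.02 to 0.19 with deposited values and from 0.54 to 0.69 after median scaling, where samples 5 and 6 gave the smallest difference. CSLA01 had no second probe.

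Few other genes of glycan metabolism could be recognised by name on this array, because the gene table gives most genes by locus number only. Lists of mannan synthesis and breakdown, O-fucosyltransferases, the cellulose synthase superfamily, nucleotide sugar supply, other wall glycosyltransferases and wall modification were matched by symbol or synonym. They found 0 genes with a probe of their own besides CSLA01. Members named only by locus number were not assigned, and CKS and the GH9 genes below were in none of these lists. The 0 therefore does not mean that such genes were absent from the array. A list of 7 enzymes acting on carbohydrates, written from the gene names after the annotation was seen, gave 1 gene that rose, 1 that fell and 5 that did not pass in limma over 12 samples at an adjusted p under 0.05. Over all probes 33.4% passed, 18.2% with a higher and 15.2% with a lower value at high iron, so the list's 2 of 7 is near the background. With deposited values 0 of the 7 rose and 4 fell, where 291 of all 3439 probes passed as higher and 1601 as lower. After median scaling 2 rose and 2 fell, where 850 probes passed as higher and 436 as lower. The directions thus depend on the scaling, for the list and for all probes. The list's median change was -0.12, against 0.00 over all probes. Over the 6 averages 0 of the 7 passed in limma, where 2.38% of all probes did; 1 of the 7 had an unadjusted p under 0.05 there. With the set as a random block 0 passed and 2 had an unadjusted p under 0.05.

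CKS (AT1G53000), the enzyme that activates Kdo, a sugar found in the pectin rhamnogalacturonan II, was the one that fell. Its deposited intensity ran from 0.234 through a median of 0.263 to 0.307 in control and from 0 through a median of 0.138 to 0.153 at high iron. After quantile normalization the nearest values of the groups were -2.419 in control sample 2 and -2.430 in high iron sample 2. Its difference was -0.51 (SE 0.13, adjusted p = 0.0104 in limma). It is dim like CSLA01, at percentile 11.3 of mean level, and high iron sample 3 was deposited as 0. The difference was -0.25 with a floor at the 10th percentile, and -0.995 with deposited values, where the median of all probes was -0.40. CKS passed in all 12 limma fits without 1 sample (adjusted p from 0.00635 to 0.0254) and in limma after median scaling (adjusted p = 0.0018). It did not pass in others. Its adjusted p in limma was 0.0564 with values of 0 left out, 0.134 over set averages and 0.156 with a random block for the set. It was 0.0780 and 0.0838 without samples 3 and 4 or 5 and 6 of both groups.

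GH9B12 (AT2G44570) was the one that rose, by 0.35 (SE 0.12, adjusted p = 0.0370 in limma), although with deposited values its difference was -0.18. GH9 proteins are endoglucanases, the plant relatives of cellulases. In its deposited intensity the groups overlapped, from 0.406 through a median of 0.519 to 0.609 in control and from 0.332 through a median of 0.463 to 0.552 at high iron. Its difference by set was 0.64, 0.41 and 0.01, and it passed in only 5 of the 12 limma fits without 1 sample (adjusted p up to 0.0803). Its adjusted p was 0.307 over set averages, 0.163 with a random block for the set, 0.0575 blocked by replicate number, and 0.385 at a difference of 0.14 after removal of a running median over probe numbers.

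The 5 that did not pass had differences from -0.43 to 0.27. GH9B16, another GH9 gene, stood at -0.43 (SE 0.21) and passed in limma when blocked by replicate number (adjusted p = 0.0245), but not with that block over set averages (adjusted p = 0.190). UGT74D1, a glucosyltransferase that acts on small molecules including auxin derivatives, stood at -0.36 (SE 0.16), GH9B11 at 0.27 (SE 0.15), GH9B8 at -0.12 (SE 0.26) and ATSPS4F, a sucrose-phosphate synthase, at -0.08 (SE 0.08). GH9B11 and GH9B12 have consecutive locus numbers, and related genes of a family may share signal on a probe. Calls of these 5 depended on the scaling. In limma after median scaling UGT74D1 passed at -0.49 (adjusted p = 0.00817) and ATSPS4F at 0.43 (adjusted p = 0.0131), the opposite sign. With deposited values UGT74D1, GH9B16 and GH9B8 passed at -1.02, -0.94 and -0.81.

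**Figure D5:**
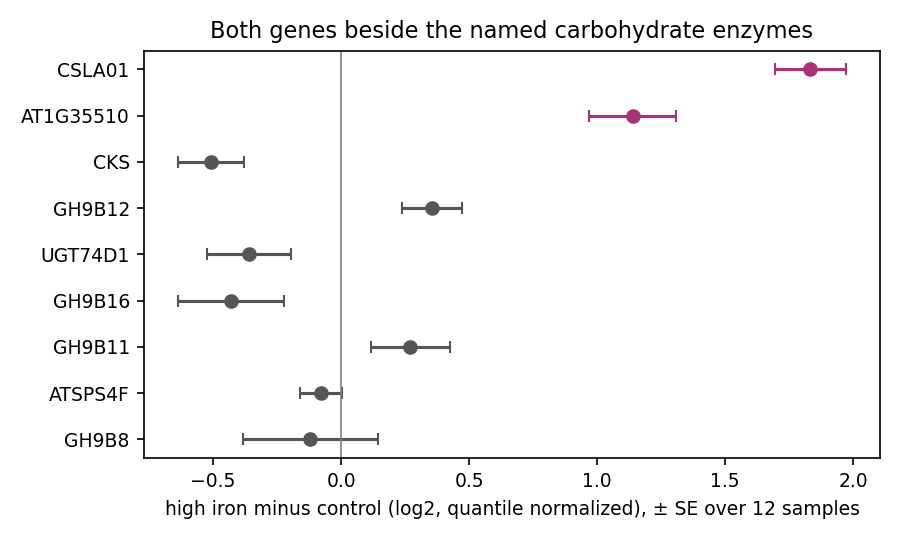
High iron minus control (log2 after quantile normalization) with SE over 12 samples for CSLA01 and AT1G35510 and the 7 named carbohydrate enzymes. The enzymes lie between -0.51 (CKS) and 0.35 (GH9B12), and the pair, which was chosen for its rise, at 1.83 and 1.14.

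The nearest measured gene to CSLA01 on its chromosome was AT4G16610, the second protein-coding gene away, and no gene within 5 of AT1G35510 had a probe of its own. AT4G16610 averaged -0.83 in control and -0.38 at high iron, a difference of 0.45 (SE 0.10) that passed in limma over 12 samples (adjusted p = 0.00537) but not over the 6 averages (adjusted p = 0.122). The 4 probes with numbers nearest to that of CSLA01 had differences from 0.08 to 0.48 with a median of 0.30, and those nearest to AT1G35510 from -0.59 to 0.00 with a median of -0.14. Whether probe numbers follow positions on the array is not stated in the labels.

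Likeness to each gene was measured as Pearson's r of log2 values over the 12 samples, across 655 other genes. Since both genes differ between the groups, genes with a difference of the same sign lead such a ranking. The 5 most like CSLA01 were AT4G13220 (r = 0.98), AT2G28660 (r = 0.98), APS4 (r = 0.97), AT4G29890 (r = 0.97) and AT4G22490 (r = 0.97), with differences from 0.63 to 1.25. APS4 is an ATP sulfurylase of sulphate assimilation. Of these 5, 2 were among the 5 most like CSLA01 after median scaling and 1 with deposited values. The 5 most like AT1G35510 were AT5G55580 (r = 0.98), AT3G57440 (r = 0.96), AT1G51350 (r = 0.95), AT1G24040 (r = 0.94) and AT3G06870 (r = 0.94), with differences from 0.48 to 1.15, and 5 and 4 of them stayed among the 5 under those scalings. No gene was among the 5 of both.

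With the group means removed, the ranking follows how samples vary inside the groups, which is mostly the sets. GH9B8, the endoglucanase gene above, was then most like CSLA01 (r = 0.91), followed by AT4G03150 (r = 0.90), the photosystem II gene PSBY (r = 0.89), AT4G13550 (r = 0.87) and AT1G70350 (r = 0.86). Between the groups GH9B8 differed by less than its SE. It stood at -3.16 in high iron samples 5 and 6, near the floor of -3.24. The control mean of AT4G13550 was at that floor, so its r rests on the high iron samples. Most like AT1G35510 were AT5G44150 (r = 0.94), AT1G19490 (r = 0.93), AT1G53050 (r = 0.93), AT5G11650 (r = 0.92) and AT1G55440 (r = 0.91), with differences between the groups from -1.51 to -0.56. The genes that varied most like AT1G35510 inside the groups thus had mean differences of the opposite sign between them. These orders are unstable: 1 and 0 of the 5 for CSLA01, and 1 and 3 of the 5 for AT1G35510, stayed after median scaling and with deposited values.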

How the data were processed

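The authors deposited a linear intensity for each probe of each array, from 0 to 100. No label or header states scanning, background correction or scaling; unit and centring therefore stay unknown, and direction is that of the labelled groups. Groups come from the source names and replicate numbers from the titles. Genes were named from the platform annotation, which can be old, with symbols updated through gene numbers from a RefSeq table (assembly TAIR10.1) that held 690. Single-gene probes numbered 692 of 3439, while 870 had several genes and 1877 none; several probes of a gene were represented by the brightest. No build is named, so no positions are given.

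Column medians differed 1.76-fold, so arrays were quantile normalized, floored at the 5th percentile of positive values (0.106, or -3.24 in log2) and log2 transformed; a floor understates the change of dim probes. limma 3.58.1 (lmFit, then eBayes with trend) under R 4.3.3 tested all probes two-sided with Benjamini-Hochberg adjustment and a threshold of 0.05, and was tested on simulated data. The number of arrays limits the precision. Same-numbered samples of the groups deviated together (r from 0.13 to 0.52 over probes, all above 0.1). The numbers may thus pair samples or only sets, as read from the values and without support in the labels. The fit stayed unpaired, with the replicate number as a block in an alternative. The set as a random block used duplicateCorrelation (statmod 1.5.0, correlation 0.774).

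The members and the lists were chosen with earlier results of these data known. Genes named are the pair, measured members of the mannan, O-fucosyltransferase and cellulose synthase lists, up to 3 of each other list, the added list of 7 in full, and the 5 most like each gene by either measure. The alternatives were other scalings, floors and filters, averages and blocks of sets, array weights, a running median over 51 probe numbers, and leaving out samples or sets.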

Additional observations from a re-analysis of the deposited data

Results flagged for a closer look

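Of 58 groups of 6 values examined, 2 held a sample apart from the others by more than 0.625 of the group's range. For independent values chance alone would give about 1 in 20. That rate need not hold here, where samples of a set resembled each other. In ATSPS4F, high iron sample 6 stood at 0.25 on the log2 scale, below the other 5 at 0.51 to 0.63. In AT3G06870, one of the genes most like AT1G35510, control sample 4 stood at 0.61, above the other 5 at 0.43 to 0.49. No sample of CSLA01 or AT1G35510 stood apart in this way, but the rule looks for 1 sample and cannot flag a set of 2 that lies apart.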

How the results depend on the processing

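The differences of CSLA01 and AT1G35510 kept their sign under every alternative run. CSLA01, at 1.83, stood at 1.22 with values as deposited and at 1.48 with a running median over probe numbers removed, and AT1G35510, at 1.14, stood at 1.64 with median scaling. The other alternatives moved them by less than the spread between samples. Leaving out 1 sample gave 1.77 to 1.92 and 1.05 to 1.23. CSLA01 lies among the dimmest 25 percent of probes, so the fit without those gave it no value. The replicate block leaves both differences at 1.83 and 1.14, since the design is balanced.

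The number of probes that passed, 1149, was 1892 with deposited values, 82 over averages of the sets, 491 with a random block for the set, and 1 with the replicate block over set averages. It ran from 1000 to 1172 with 1 sample left out. Of 3439 probes 1286 passed with median scaling, 1661 with array weights and 1392 with the replicate block. With no floor 1189 of 3295 passed, and without the dimmest 25 percent 1011 of 2580. Without samples 1 and 2 or 3 and 4 of both groups 886 and 826 of 3439 passed. Higher values made up 54.4% of the calls, against 66.1% after median scaling and 15.4% as deposited. Of the 7 carbohydrate enzymes, 2 passed. This was 4 with median scaling (2 higher, 2 lower) and with deposited values (0 higher, 4 lower), and 5 with array weights. It was 1 with no floor, without the dimmest 25 percent (4 tested), and without samples 1 and 2 or 3 and 4 of both groups. It was 0 over averages of the sets, with a random block for the set, and with the replicate block over set averages. With 1 sample left out it ran from 1 to 3. The replicate block also gave 2, CKS and GH9B16. The symbols of the fixed glycan lists matched 0 measured genes besides CSLA01, so no alternative could be run on them. The cause of these moves was not tested. CSLA01, CKS, GH9B8 and UGT74D1 lie among the dimmest 25 percent of probes, so signal near the lowest values limits their differences.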
